A study of Homo sapiens with 6 samples.

Results

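Laminins and their partners in the basement membrane were followed in A673, a human Ewing sarcoma cell line with the EWS-FLI1 fusion gene. The 10 genes were LAMA4, LAMA5, LAMB1, LAMB2 and LAMC1, which encode laminin chains, the nidogens NID1 and NID2, and HSPG2, AGRN and COL18A1, whose proteins carry heparan sulfate. They were taken by symbol from a table of 27234 gene rows, and each symbol matched 1 row. Cells had been transfected with siRNA oligonucleotides specific to FLI1 (siFLI1, 3 libraries) or with scrambled control oligonucleotides (siControl, 3 libraries), and RNA was isolated after 48 h. Both groups carry the fusion, both grew in serum-containing DME medium, and all 6 libraries come from 1 cell line. The labels do not say whether libraries of a group came from separate cultures, so p-values rest on library-to-library spread that could be technical only.

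Basement membranes are thin sheets of matrix that lie under epithelia and endothelia and around muscle, fat and Schwann cells. Laminins are secreted as trimers of an alpha, a beta and a gamma chain. Many of them, but not all, polymerise at the cell surface on integrins and dystroglycan. Nidogens link the laminin network to type IV collagen, and the heparan sulfate proteoglycans perlecan (HSPG2), agrin (AGRN) and collagen XVIII (COL18A1) bind to both and hold growth factors. The alpha-4 chain is the laminin alpha chain typical of mesenchymal cells, vessels and fat, whereas the alpha-5 chain is the most widespread alpha chain of adult epithelia and vessels.

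Counts assigned to genes ranged from 1248395 to 1893606 in 5 libraries and came to 417145 in siFLI1 replicate 3. It scored 80.2 on principal component 1, where the rest scored -30.5 to 1.63. On component 3, siControl replicate 1 scored 45.1 and the rest -31.6 to 10.9. The row of FLI1, the targeted gene, was at 19.0, 42.5 and 24.1 CPM in siFLI1 and at 63.0, 69.1 and 62.4 CPM in siControl. Whether its counts came from FLI1 or from the fusion gene was not tested. CPM are counts normalised to library size with the trimmed mean of M values (TMM). The groups did not overlap, but the log2 fold change of -1.16 ± 0.36 (SE) missed the threshold (edgeR adjusted p = 0.17). All 7 listed Ewing sarcoma markers, FLI1 among them, were detected, with a summed level of 684 to 782 CPM in siFLI1 and 1212 to 1522 CPM in siControl. STEAP1 had the largest part of it, at means of 379 and 688 CPM. All 7 were tested and 0 had a log2 fold change above 0, beside 4752 of all 9420 tested genes. NR0B1 (edgeR adjusted p = 0.025) and PRKCB (0.0369) were called lower, beside 11 of all tested genes. Markers of other cells that make basement membranes were checked as well. The 9 endothelial markers summed to 13.4 to 20.6 CPM in siFLI1 and 7.03 to 23.7 CPM in siControl, with TEK at 0, and the highest means over all 6 libraries were those of CLDN5 (5.83 and 7.16 CPM) and KDR (3.62 and 2.86 CPM). The 6 Schwann cell markers summed to 2.68 to 9.50 and 2.93 to 14.0 CPM, with SOX10 and S100B at 0 and MBP at a mean of 2.98 and 2.97 CPM. The 7 epithelial markers summed to 225 to 257 and 177 to 225 CPM, nearly all of it KRT18 (213 and 176 CPM) and KRT8 (22.4 and 21.0 CPM), with KRT5, KRT14 and KRT19 at 0. The 8 fibroblast and pericyte markers summed to 427 to 450 CPM in siFLI1 and 178 to 272 CPM in siControl, but they did not all move the same way. Most of that sum was smooth muscle actin ACTA2 (181 and 33.5 CPM) and MCAM (179 and 150 CPM). Of the 4 genes of this list that were tested, 4 had a log2 fold change above 0, beside 4752 of all 9420 tested genes. Their median was 1.34, and ACTA2 was called higher (edgeR adjusted p = 0.000108). PDGFRA, which was not tested, had the lower mean in siFLI1, 0.594 CPM against 4.77 CPM in siControl. The siControl mean came from 25, 0 and 1 counts in replicates 1, 2 and 3. PDGFRB, a receptor of pericytes and fibroblasts named after its values were seen, was at 51.3 and 15.3 CPM with no overlap and did not pass (log2 fold change 1.68, edgeR adjusted p = 0.117). DCN and LUM, which define fibroblasts, had at most 7 counts in any library. The part of these cells in the laminin results was not tested. In bulk RNA, fewer cells of a type and less RNA per cell cannot be told apart.

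Stretches of promoter are shown for the genes whose levels were compared most closely, LAMA4, LAMC1, LAMB1 and NID2, because FLI1 and its fusion bind DNA at a GGAA core. Windows of 250 bases before a RefSeq start site (GRCh38.p14) were found for 9 of the 10 genes, all but AGRN. Printed below, on the gene's strand from 5′ to 3′, is the longest stretch of each window that lies outside the gene's row in the count table and outside exons of GENCODE 29. Capitals mark GGAA or, on the other strand, TTCC. The stretches are chr6:112254723-112254785 (minus strand) for LAMA4, chr1:183023170-183023419 (plus) for LAMC1, chr7:108003360-108003411 (minus) for LAMB1 and chr14:52069229-52069309 (minus) for NID2.
LAMA4: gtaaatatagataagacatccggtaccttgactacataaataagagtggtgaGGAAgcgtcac
LAMC1: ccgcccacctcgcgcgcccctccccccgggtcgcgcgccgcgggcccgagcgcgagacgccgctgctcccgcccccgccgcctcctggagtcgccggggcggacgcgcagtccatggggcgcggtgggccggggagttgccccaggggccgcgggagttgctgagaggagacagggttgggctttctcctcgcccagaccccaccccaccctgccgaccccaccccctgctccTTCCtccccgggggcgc
LAMB1: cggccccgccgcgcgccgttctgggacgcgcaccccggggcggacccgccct
NID2: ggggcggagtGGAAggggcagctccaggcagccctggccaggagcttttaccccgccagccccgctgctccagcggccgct

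Over the whole windows, counting both strands and allowing overlaps, GGAA occurred 3 times for LAMA4, 3 times for LAMB1, 1 time for LAMC1 and 1 time for NID2. The windows of LAMA4, LAMB1 and NID2 reach into the gene's own row in the count table, so part of each lies within the counted gene. In the printed stretches GGAA occurred 1, 0, 1 and 1 time for LAMA4, LAMB1, LAMC1 and NID2. Of 35116 RefSeq windows of this length 92.7% held GGAA, with a median of 3 matches. The repeat GGAAGGAA, which contains GGAA, was present in 3.06% of all windows and, among the members, in that of LAMB2, a gene that did not pass the test described next. It was not in the longest stretch of the LAMB2 window outside the gene's row and exons. GGAATG, a TEAD motif that also contains GGAA, and the AP-1 motif TGANTCA were in none of the members' windows and in 11.9% and 6.57% of all windows. The LAMA4 window had 48.4% GC, and those of LAMC1, LAMB1 and NID2 had 79.6%, 70.4% and 68.0%.

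LAMA4 and LAMC1 were called higher in siFLI1, and no tested member was called lower. The LAMC1 call held in only 1 of the fits that left out 1 library. LAMA4 was 39.3-fold higher and LAMC1 2.68-fold higher by group means, and LAMB1, their usual beta partner, was at 280 CPM against 135 CPM without passing the test. Differences were tested in edgeR's quasi-likelihood test with Benjamini-Hochberg adjustment over 9420 genes and a threshold of 0.05. Of the 9 members tested, 2 were called higher and 0 lower, where 1.34% of all tested genes were called higher and 0.117% lower. An unadjusted p below 0.05 was met by 7 of the 9 as higher and 0 as lower, beside 6.62% and 4.13% of all tested genes. The median log2 fold change of the 9 was 1.56, and that of all tested genes 0.0052. In 5 of the 9, LAMA4, LAMB1, LAMC1, NID1 and HSPG2, each siFLI1 library lay above each siControl library, a property of 8.93% of tested genes. In 0 of the 9 did each siFLI1 library lie below each siControl library, which 7.71% of tested genes did. The low-count filter asked for about 6.5 CPM in 3 libraries. HSPG2, NID1 and LAMA5 reached it in all 3 siFLI1 libraries but in 0, 1 and 1 siControl libraries, so they entered the test through the group where they were higher. All of them are among the 7 with unadjusted p below 0.05, and NID1 and HSPG2 are among the 5 without overlap. The median of 1.56 is the estimate of LAMA5. These counts and the median thus rest in part on genes favoured by the filter and are no support for a change in them. COL18A1 did not pass the filter.

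**Figure D1:**
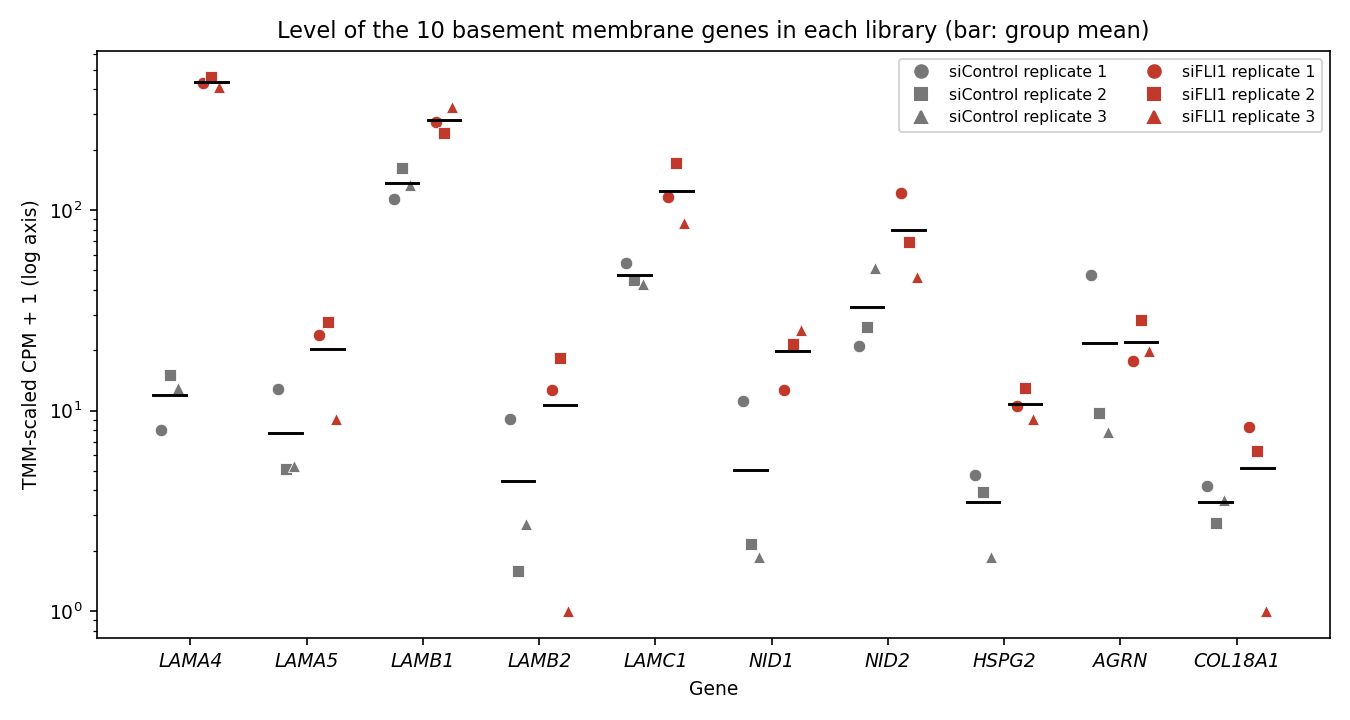
Level of the 10 basement membrane genes in each library, as TMM-scaled CPM plus 1 (log axis), siControl in grey, siFLI1 in red, a marker shape for each replicate and a bar for the group mean. LAMA4 lies at 410 to 458 CPM in siFLI1 and at 7.00 to 14.1 CPM in siControl, whereas siControl replicate 1 lies far above the other 2 control libraries for AGRN, NID1 and LAMB2.

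Of the alpha chains, LAMA4 (chromosome 6, 112107931 to 112254715, minus strand, hg38) had 771, 689 and 153 counts in siFLI1 replicates 1, 2 and 3. It had 13, 24 and 14 counts in siControl replicates 1, 2 and 3. As CPM these were 431, 458 and 410 against 7.00, 14.1 and 12.0. The 3 siFLI1 libraries lay close together, replicate 3 included, and the groups were far apart. The log2 fold change was 5.30 ± 0.33 (SE), with an adjusted p of 1.38e-06 (edgeR). Leaving out the libraries in turn kept the call 6 of 6 times, with adjusted p at most 0.000173. A row on the other strand that overlaps LAMA4, LOC101927640, had 0 counts in the 6 libraries.

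LAMA5 (chromosome 20, 62309060 to 62367312, minus strand) encodes the alpha-5 chain. It was at 22.9, 26.6 and 8.03 CPM in siFLI1 and at 11.8, 4.10 and 4.27 CPM in siControl. The groups overlapped, since siFLI1 replicate 3, with 3 counts, lay below siControl replicate 1, with 22. The estimate, 1.56 ± 0.59 (SE) on the log2 scale, had a 95% interval of 0.30 to 2.82 and missed the threshold (edgeR adjusted p = 0.314). The antisense row LAMA5-AS1 had 8 counts in all.

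Because both alpha chains were counted in the same libraries, their ratio does not depend on how libraries are scaled to each other. It can still depend on how each library captured these transcripts, whose last 500 bases had 30.2% GC for LAMA4 and 56.8% for LAMA5. The part of base composition in the shares was not tested. LAMA4 made up 94.95%, 94.5% and 98.1% of the LAMA4 and LAMA5 counts in siFLI1 replicates 1, 2 and 3. In siControl replicates 1, 2 and 3 its share was 37.1% (95% Wilson interval 23.2% to 53.7%), 77.4% (60.2% to 88.6%) and 73.7% (51.2% to 88.2%). Wilson intervals cover counting error only. The groups did not overlap, and the mean share was 95.8% ± 1.94 against 62.7% ± 22.3 (SD, n = 3), a difference of 33.1 percentage points with a two-sided exact permutation p of 0.1. That is the smallest p that 3 against 3 libraries can give, and it became 0.3 adjusted over the 3 shares tested. Without siControl replicate 1 the difference was 20.3 points.

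**Figure D2:**
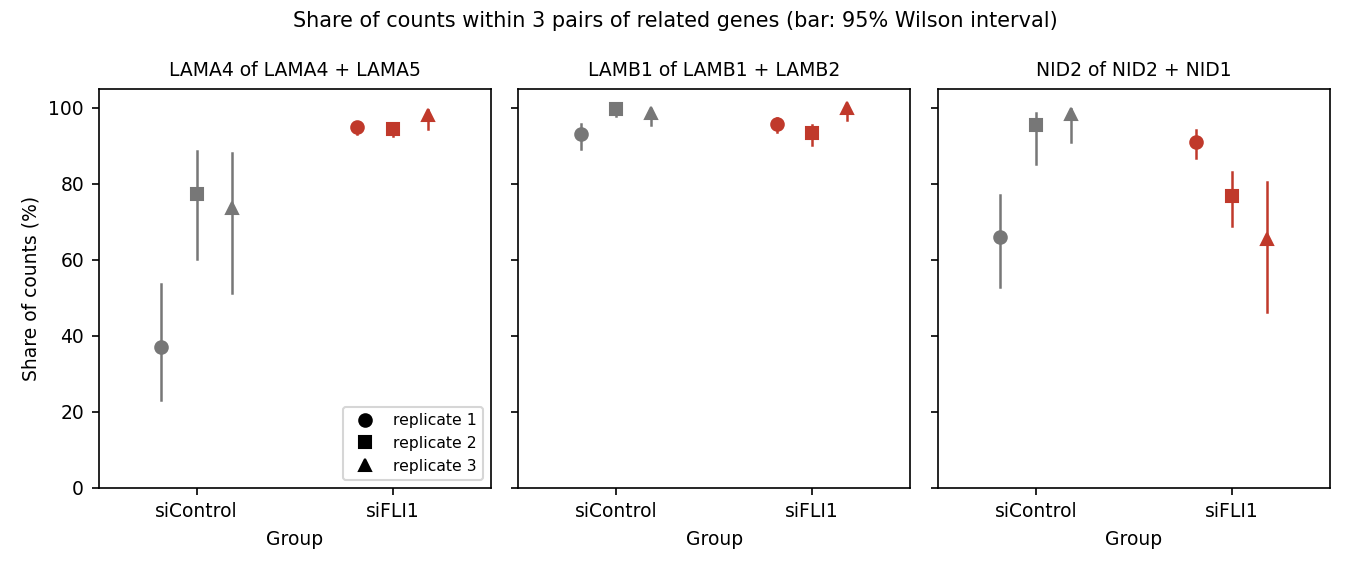
Share of counts within 3 pairs of related genes in each library, in percent, with 95% Wilson intervals as bars, siControl in grey and siFLI1 in red. LAMA4 holds at least 94.5% of the alpha-chain counts in each siFLI1 library and at most 77.4% in siControl, whereas the shares of LAMB1 and NID2 overlap between the groups.

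Of the beta chains, LAMB1 (chromosome 7, 107923801 to 108003359, minus strand), which encodes the beta-1 chain, had 489, 363 and 122 counts in siFLI1 and 208, 275 and 155 in siControl. This corresponds to 273, 241 and 327 CPM in siFLI1 and 112, 161 and 132 CPM in siControl. Each siFLI1 library was above each siControl library. The log2 fold change of 1.04 ± 0.26 (SE; 95% interval 0.50 to 1.59) missed the threshold (edgeR adjusted p = 0.0651), and DESeq2 called it (adjusted p = 0.0276).

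LAMB2 (chromosome 3, 49121114 to 49133166, minus strand), the beta-2 chain of neuromuscular junctions and kidney, was sparse, with 21, 26 and 0 counts in siFLI1 and 15, 1 and 2 in siControl. A count of 0 in siFLI1 replicate 3 allows a level of up to 8.03 CPM there, against a mean of 3.46 CPM in siControl. The estimate, 1.60 ± 0.89 (SE) on the log2 scale, had a 95% interval of -0.29 to 3.50 (edgeR adjusted p = 0.567). LAMB1 accounted for 95.9% and 93.3% of LAMB1 and LAMB2 counts in siFLI1 replicates 1 and 2, for 122 of 122 in replicate 3, and for 93.3%, 99.6% and 98.7% in siControl. These shares overlapped, with a mean difference of -0.813 percentage points (two-sided exact permutation p = 1.0).

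LAMC1 (chromosome 1, 183023460 to 183145592, plus strand) encodes the gamma-1 chain found in most laminin trimers. It had 207, 257 and 32 counts in siFLI1 and 99, 75 and 49 in siControl, which gave 116, 171 and 85.7 CPM against 53.3, 43.9 and 41.9 CPM. The groups did not overlap, with the lowest siFLI1 value in replicate 3. On the log2 scale the difference came to 1.44 ± 0.31 (SE), with a 95% interval from 0.79 to 2.09 (edgeR adjusted p = 0.0287). The call held without siFLI1 replicate 3 (adjusted p = 0.0113) and was lost in the other 5 fits that left out 1 library, with adjusted p at 0.0877 and 0.246 for siFLI1 replicates 1 and 2 left out and at 0.060, 0.171 and 0.163 for siControl replicates 1, 2 and 3. It was also lost when libraries were scaled by total counts (adjusted p = 0.0915).

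Set against LAMB1 within each library, a ratio chosen after the values were seen, LAMA4 had 1.58, 1.90 and 1.25 counts per LAMB1 count in siFLI1 and 0.0625, 0.0873 and 0.0903 in siControl. LAMC1 had 0.423, 0.708 and 0.262 counts per LAMB1 count in siFLI1 and 0.476, 0.273 and 0.316 in siControl. LAMA4 thus moved relative to LAMB1 in every siFLI1 library, whereas the LAMC1 ratio overlapped between the groups. Ratios of counts between genes also depend on how well each 3′ end is captured, so only their difference between groups is read here.

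The nidogens differed in how evenly their libraries behaved. NID2 (chromosome 14, 52004802 to 52069228, minus strand), nidogen-2, had 216, 103 and 17 counts in siFLI1 and 37, 43 and 59 in siControl. Its levels of 121, 68.4 and 45.5 CPM in siFLI1 and 19.9, 25.2 and 50.4 CPM in siControl overlapped, since siFLI1 replicate 3 lay below siControl replicate 3. The estimated log2 difference of 1.37 ± 0.42 (SE), with a 95% interval from 0.48 to 2.26, missed the threshold (edgeR adjusted p = 0.162). It was 1.60 without siFLI1 replicate 3 (adjusted p = 0.0814) and 1.34 with siControl replicate 1 left out as well (0.113).

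NID1 (chromosome 1, 235975832 to 236065181, minus strand), nidogen-1, had 21, 31 and 9 counts in siFLI1 and 19, 2 and 1 in siControl, or 11.7, 20.6 and 24.1 CPM against 10.2, 1.17 and 0.855 CPM. The groups just failed to overlap, because siControl replicate 1 lay 10.1-fold above the mean of the other 2 control libraries. With all 6 libraries the log2 fold change was 2.04 ± 0.76 (SE; edgeR adjusted p = 0.302), and without siControl replicate 1 it was 3.98 (adjusted p = 0.042). NID1 lay under 6.5 CPM in both remaining siControl libraries, so it entered that fit through siFLI1, where it was higher. The adjusted p of that fit is therefore no support for a change. NID2 made up 91.1%, 76.9% and 65.4% of nidogen counts in siFLI1 and 66.1%, 95.6% and 98.3% in siControl, with a difference of -8.86 percentage points (two-sided exact permutation p = 0.5). Here too the groups overlapped.

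None of the heparan sulfate proteoglycans passed the test. HSPG2 (chromosome 1, 21822232 to 21937297, minus strand), which encodes perlecan, had 17, 18 and 3 counts in siFLI1 and 7, 5 and 1 in siControl. Its levels were 9.50, 12.0 and 8.03 CPM against 3.77, 2.93 and 0.855 CPM, with no overlap. Pooled counts gave a 3.77-fold ratio (95% exact counting interval 1.97 to 7.72), and the log2 fold change was 1.90 ± 0.69 (SE; edgeR adjusted p = 0.289).

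AGRN (chromosome 1, 1020123 to 1056119, plus strand) encodes agrin, which clusters acetylcholine receptors at the neuromuscular junction. It was at 16.8, 27.2 and 18.7 CPM in siFLI1 and at 46.3, 8.78 and 6.84 CPM in siControl. The 3 siFLI1 libraries lay between siControl replicate 1, the highest of all 6, and the other 2 control libraries. Its log2 difference came to 0.0053 ± 0.64 (SE; edgeR adjusted p = 0.999), with a 95% interval of -1.38 to 1.39 that includes changes of more than 2-fold in either direction. It ran from -0.38 without siControl replicate 3 to 1.38 without siControl replicate 1 and was negative under scaling by total counts, at -0.24. Agrin is therefore given no direction.

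COL18A1 (chromosome 21, 45455510 to 45513720, plus strand), the precursor of endostatin, had 13, 8 and 0 counts in siFLI1 and 6, 3 and 3 in siControl. Its group means of 4.19 ± 3.76 and 2.52 ± 0.738 CPM (SD, n = 3) overlapped. Pooled counts gave a ratio of 2.26 (95% exact counting interval 1.06 to 5.04), which covers counting error only, and the two-sided exact permutation test of the 6 libraries gave p = 1.0.

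**Figure D3:**
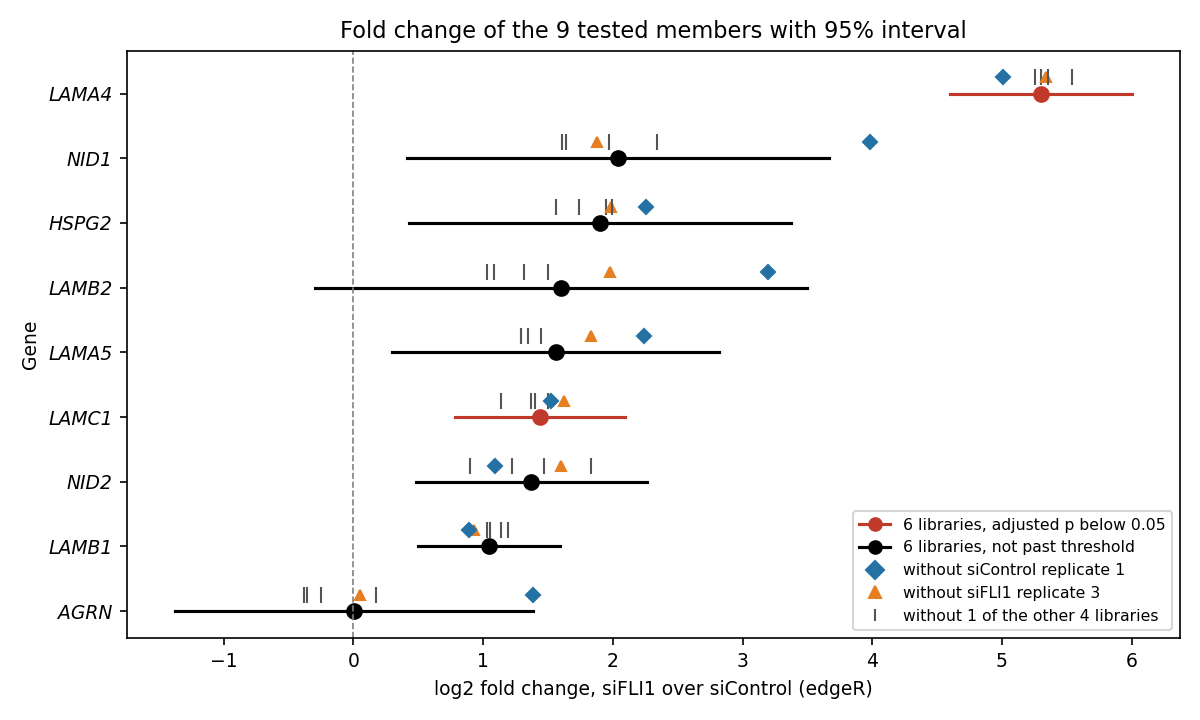
Log2 fold change of siFLI1 over siControl for the 9 tested members, with the 95% interval from edgeR as a line, red where adjusted p was below 0.05. Smaller markers above each line show fits without 1 library, with a blue diamond for the fit without siControl replicate 1, which moves NID1 from 2.04 to 3.98, LAMB2 from 1.60 to 3.20 and AGRN from 0.0053 to 1.38.

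Summed over the 10 members, levels were 1021, 1047 and 926 CPM in siFLI1 and 276, 264 and 254 CPM in siControl. LAMA4 contributed 42.2%, 43.7% and 44.2% of the members' counts in siFLI1 replicates 1, 2 and 3 and 2.54%, 5.33% and 4.71% in siControl. Without LAMA4, the other 9 members summed to 590, 589 and 517 CPM in siFLI1 and 269, 249 and 242 CPM in siControl. These sums are a description, given without a test.

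Spread within the groups followed the members unequally. AGRN, NID1, LAMB2 and LAMA5 were 5.93-, 10.1-, 7.04- and 2.83-fold higher in siControl replicate 1 than in the mean of siControl replicates 2 and 3. On the log2(CPM + 1) scale these differences lay at percentiles 99.8, 99.8, 99.6 and 96.8 of the tested genes. LAMA4, NID2 and LAMB1 were lower in that library, at 0.538, 0.527 and 0.763 of the mean of the other 2.

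The members' 3′ ends fell into separate ranges of base composition. GC over the last 500 bases was 56.8% to 63.0% for LAMA5, AGRN, COL18A1, LAMB2 and HSPG2 and 29.2% to 35.0% for NID2, LAMA4, LAMB1, NID1 and LAMC1. Across 9009 tested genes with a sequence in GENCODE 29, genes in the highest quintile of GC had a median log2 difference of -0.557 in siFLI1 replicate 3 against replicates 1 and 2, and genes in the lowest quintile 0.22. Pearson's r was -0.319 over these genes, which share their libraries and are not independent. For siControl replicate 1 against replicates 2 and 3 the corresponding medians were 0.223 and 0.00037, with r = 0.0944. NID1, at 34.4% GC, was among the members highest in siControl replicate 1. The part of base composition in the members' differences between groups was not tested.

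**Figure D4:**
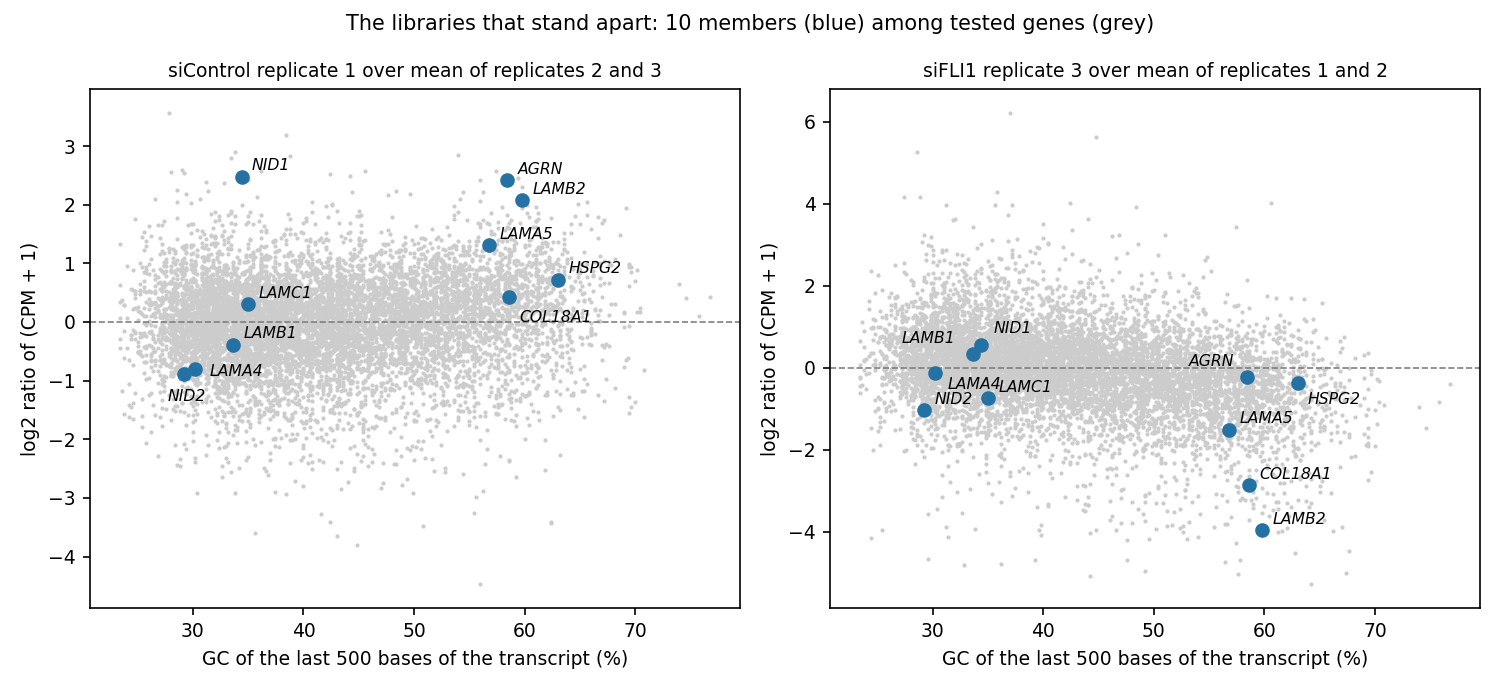
Log2 ratio of (CPM + 1) for the libraries that stood apart, against GC of the last 500 bases of the transcript in percent, with tested genes in grey and the 10 members in blue. On the left, siControl replicate 1 is above the mean of replicates 2 and 3 for NID1, AGRN, LAMB2 and LAMA5, and on the right siFLI1 replicate 3 is below the mean of replicates 1 and 2 for COL18A1 and LAMB2, which had 0 counts in it.

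The fit was repeated without siFLI1 replicate 3 and siControl replicate 1, which left 2 libraries a group. In it 5 of 9 tested members were higher and 0 lower, beside 161 genes higher and 32 lower of 9577 tested. LAMA5 then had a log2 fold change of 2.53 (adjusted p = 0.0318), LAMB2 3.66 (0.0421) and NID1 3.85 (0.0264), and LAMC1 and LAMA4 passed again (edgeR). LAMA5, LAMB2 and NID1 lay under 6.5 CPM in both remaining siControl libraries, so they entered this fit through siFLI1, where they were higher, and the count of 5 is no support for a change in them. AGRN was at 1.46 and did not pass (adjusted p = 0.235).

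Of 10 further laminin and netrin genes, 8 had any count and 2 were tested, with 0 calls in edgeR, in DESeq2 and in limma-voom and 0 at an unadjusted p below 0.05. LAMB3, the beta-3 chain of skin laminin, averaged 44.7 ± 15.1 CPM with siFLI1 and 62.5 ± 24.7 CPM with siControl (SD, n = 3), or -0.43 ± 0.37 (SE) as log2 fold change (edgeR adjusted p = 0.765). NTN4, netrin-4, which binds laminin gamma-1 and blocks polymerisation, was at 11.8 ± 8.33 and 9.67 ± 14.5 CPM, the latter from 26.4, 1.76 and 0.855 CPM in siControl replicates 1, 2 and 3.

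Of 25 other basement membrane matrix genes, 10 were tested, with 1 called higher and 0 lower and a median log2 fold change of 0.52. DESeq2 called 3 higher (COL4A1, FREM1 and SPARC), beside 183 of all 9420 tested genes, and limma-voom called 1, beside 127. In edgeR 3 were higher and 0 lower with unadjusted p below 0.05, beside 6.62% and 4.13% of all tested genes. COL4A1, the alpha-1 chain of type IV collagen (chromosome 13, 110148958 to 110307157), rose from 65.9 ± 4.06 to 181 ± 41.2 CPM (SD, n = 3), with 1.46 ± 0.27 (SE; edgeR adjusted p = 0.00971). That call was lost without siFLI1 replicate 2 (adjusted p = 0.115), siControl replicate 2 (0.0832) or siControl replicate 3 (0.0745).

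Of 17 receptor genes, 10 were tested. Calls numbered 0 in edgeR, in DESeq2 and in limma-voom. An unadjusted p below 0.05 was met by 2 higher and 0 lower, beside 6.62% and 4.13% of all tested genes. The median log2 fold change was 0.38. ITGA6, the integrin alpha-6 subunit of laminin receptors, was at 23.2 ± 13.8 and 5.77 ± 2.48 CPM in siFLI1 and siControl (edgeR adjusted p = 0.22), and the syndecan SDC2 at 426 ± 46.6 and 256 ± 28.6 CPM (adjusted p = 0.227, both edgeR). With 14, 5 and 8 counts in siControl, ITGA6 entered the test through siFLI1, where it was higher.

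Enzymes that build, sulfate or trim heparan sulfate showed 0 calls among 13 tested of 22 listed in edgeR, in DESeq2 and in limma-voom. An unadjusted p below 0.05 was met by 1 higher (NDST1) and 0 lower, beside 6.62% and 4.13% of all tested genes, and the median log2 fold change was -0.19. With 13, 2 and 4 counts in siControl, NDST1 entered the test through siFLI1, where it was higher. The sulfotransferase NDST1 was at 1.55 ± 0.72 (SE; edgeR adjusted p = 0.459) and EXTL2, a glycosyltransferase of chain synthesis, at 1.09 ± 0.53 (adjusted p = 0.494).

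Of 16 proteases that cleave basement membrane proteins, 9 were tested, with 1 higher and 0 lower and a median of 0.62. DESeq2 and limma-voom each called 1 higher, and unadjusted p was below 0.05 for 3 higher and 1 lower, beside 6.62% and 4.13% of all tested genes. BMP1, among the 3 higher, had 5, 5 and 4 counts in siControl and entered the test through siFLI1, where it was higher. The lysosomal protease CTSB, cathepsin B, rose from 188 ± 20.4 to 417 ± 85.1 CPM (SD, n = 3), with 1.15 ± 0.26 (SE; edgeR adjusted p = 0.0387). Of the 6 fits that left out 1 library, the CTSB call held only without siFLI1 replicate 3 (adjusted p = 0.0223). In the other 5 it was lost, with adjusted p at 0.16 and 0.27 for siFLI1 replicates 1 and 2 left out and at 0.0792, 0.15 and 0.228 for siControl replicates 1, 2 and 3. Scaling by total counts ended it too (0.0827).

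**Figure D5:**
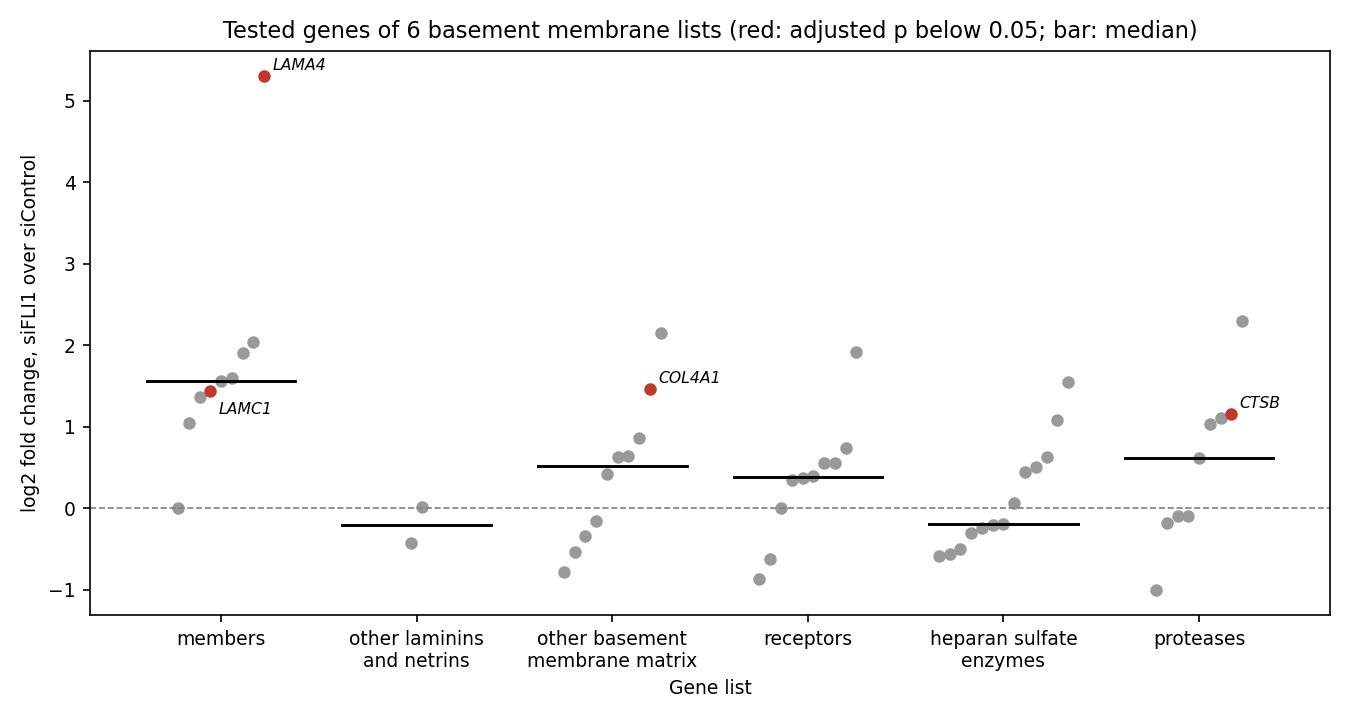
Log2 fold change of siFLI1 over siControl for the tested genes of 6 lists of basement membrane genes, 1 point a gene, red where edgeR's adjusted p was below 0.05, with a bar at each list's median. LAMA4 at 5.30 stands above the other points, and the called genes are LAMA4, LAMC1, COL4A1 and CTSB.

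The genes whose levels over the 6 libraries were most like those of LAMA4, by Pearson correlation of log2(CPM + 1) among tested genes with a mean of at least 10 CPM, were ANKRD1 (r = 0.999), COL1A2 (r = 0.999) and BST1 (r = 0.997). ANKRD1, an ankyrin repeat protein, was at 211, 240 and 201 CPM in siFLI1 and 10.8, 15.2 and 13.7 CPM in siControl. COL1A2, the alpha-2 chain of type I collagen, was at 1289, 1240 and 1210 CPM against 283, 343 and 359 CPM. BST1, a cell surface ectoenzyme, was at 61.5, 62.4 and 50.9 CPM against 5.39, 7.61 and 8.55 CPM. Like LAMA4, all 3 were lowest of the siControl libraries in replicate 1, and the correlations mostly restate the gap between the groups.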

How the data were processed

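The authors deposited a table of raw exon counts, 1 RefSeq transcript for each row, from 3′ MARS-seq libraries (per the labels' protocols). The submitters' processing notes list bcl2fastq, HISAT 0.1.5, HOMER and the build hg38. Collapse of molecular barcodes and use of strand were not given in the sources used. Titles set the groups.

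Genes passing filterByExpr (minimum count 10, minimum total 15) were scaled by TMM and fitted together in edgeR 4.0.16 under R 4.3.3 (glmQLFit, robust=TRUE; glmQLFTest, two-sided), with group as the term. The quasi-likelihood F statistic gave standard errors and intervals. Alternatives included DESeq2 1.42.0, whose NA values stayed NA, and limma 3.58.1 (voom). The fit was tested on simulated counts. Ratios, shares and motif matches used SciPy 1.17.1 and Python 3.11.15. GC of 3′ ends came from GENCODE 29 transcripts, matched for 95.6% of tested genes. No 2 replicates were alike within counting noise.

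Named genes were the members, FLI1, up to 6 called genes of each list or else the 2 with the smallest adjusted p, the 2 highest by mean of each marker list, and the 3 most like LAMA4. Not all of them are described, and some items are not reported here. Members, lists and alternatives were chosen with earlier results of these data known.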

Additional observations from a re-analysis of the deposited data

How the results depend on the processing

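LAMA4 was called higher under each of the alternatives run, with a log2 fold change from 5.01 to 5.54, and no alternative called a member lower. The count of members called higher, 2 of 9, was 1 under scaling by total counts and in glmTreat against a 1.5-fold change. It was also 1 at a threshold of 0.01. Of all 9420 tested genes, 126 were called higher in the fit as reported, 98 under total counts and 81 in glmTreat. Without siFLI1 replicate 3 and siControl replicate 1 the count of members was 5, beside 161 of 9577 genes. Over the fits without 1 library it was 1 to 2, beside 64 to 121 of all tested genes. Without siControl replicate 1 the 2 were LAMA4 and NID1, and NID1 entered that fit through siFLI1, where it was higher. With the replicate number as a block the count of members called higher was 1, beside 99 of all 9420 tested genes. LAMC1 was then at an edgeR adjusted p of 0.0735 and CTSB at 0.102. Deviations from the group means correlated at -0.023, -0.013 and -0.043 for libraries with the same number and at -0.088 to 0.113 for those with different numbers. The labels do not say whether an equal number marks a shared culture or day, and these small correlations cannot decide it. NID2 was called with no low-count filter (adjusted p = 0.0149). The log2 fold change of AGRN turned to -0.00042 with DESeq2 size factors in edgeR, -0.24 under total counts, -0.046 under upper quartile scaling, -0.025 with no low-count filter, -0.25 without siFLI1 replicate 2, -0.36 without siControl replicate 2 and -0.38 without siControl replicate 3. Scaling by total counts moved the median of all genes to -0.118.

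The difference in the LAMA4 share ran from 20.3 to 40.4 points without 1 library, and that of NID2 from -19.1 to -2.65. Without siFLI1 replicate 3 and siControl replicate 1 the LAMB1 share difference was -4.58 points. Without 1 library it ran from -2.78 to 0.729 and turned positive, at 0.729 without siFLI1 replicate 2 and 0.40 without siControl replicate 2. With the replicate block (exact sign flips of 3 pairs) the LAMA4 share difference had p = 0.25, the smallest possible there. Other matrix genes called higher numbered 1 of 10 in the fit as reported, beside 126 of all 9420 tested genes. Without siFLI1 replicate 3 and siControl replicate 1 they numbered 2 of 11, beside 161 of 9577. With no low-count filter they numbered 3 of 24 (COL4A1, FREM1 and MATN2), beside 306 of 18819. MATN2, with 1, 2 and 0 counts in siControl, had not passed the filter of the fit as reported. Proteases called higher numbered 0 of 9 under total counts, beside 98 of 9420. The causes were not tested. Low counts limit the statements on LAMA5, LAMB2, NID1, HSPG2, AGRN and COL18A1, of which siFLI1 replicate 3 held 0 to 9 counts each.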
